A study of Mus musculus with 12 samples.

Results

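A set of 5 mouse genes that build germ granules or the piRNA machinery, namely Dazl, Ddx4, Mael, Asz1 and Piwil2, was followed through 12 libraries of DNA methylation levels. They were chosen by name, as genes whose promoters are known to be silenced by methylation before germ cells switch them on. Earlier results of these data were known when the genes were chosen. All rows carrying their Ensembl gene identifiers were taken. They are 5 of the 30073 genes in the deposited levels, and their rows are 21 of 176831.

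The assay was reduced representation bisulfite sequencing (RRBS). In it the enzyme MspI cuts DNA at CCGG, so that fragments rich in CpG sites are read. The level of a feature is the share of its CpG calls that stayed unconverted, averaged over all cells of a library. All cells came from C57BL6 mice and fell into 6 groups of 2 libraries. They were female embryonic stem cells (ESCs), their parthenogenetic counterparts (pESCs) from oocytes activated without sperm, primordial germ cells (PGCs) of embryonic day (E) 9.5 and of E12.5, and PGC-like cells induced from ESCs (ESC-PGCLCs) or from pESCs (pESC-PGCLCs). According to the study's methods, both kinds of stem cell line carried a ubiquitously driven GFP transgene and grew on feeder cells in serum with LIF, then with added kinase inhibitors before induction. Induction ran through 2 days as epiblast-like cells and 4 days with BMP4, SCF, EGF and LIF. PGCLCs were sorted for CD61 and SSEA1. PGCs came from female embryos and were sorted by the same antigens or pulled down with SSEA1 beads, so other SSEA1-positive cells could be held. The study calls the libraries of a group biological replicates, but the labels do not tie them to separate cultures, lines or embryos. The p-values below then measure only the spread between these libraries.

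Germ granules are clouds of RNA and protein beside the nucleus and mitochondria of germ cells. piRNAs are small RNAs bound by PIWI proteins, which guide the silencing of transposons there. Piwil2 encodes the PIWI protein MILI, and Ddx4 the RNA helicase vasa. Dazl encodes an RNA-binding protein that regulates translation in germ cells. Mael and Asz1 encode granule components needed for piRNA production, Asz1 tying the granules to mitochondria. Their promoters are rich in CpG sites and gain methylation in the early post-implantation embryo. They lose it in PGCs around the time of arrival in the gonad, when the genes are switched on.

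A promoter level averages over the CpG sites near the start that RRBS reads, which need not be all of those upstream. The upstream sequences are printed here for the genes that the RefSeq promoter table holds, which were 4 of the 5 (build GRCm38.p6). Piwil2 had no entry. Each sequence reads 5′ to 3′ on the minus strand, on which all these genes lie, ends at the last base before both the RefSeq and the GENCODE start, and has its CpG sites in capitals. Dazl covers chr17:50293637-50293870, Ddx4 chr13:112652476-112652560, Mael chr1:166238748-166238994 and Asz1 chr6:18109062-18109311.
Dazl: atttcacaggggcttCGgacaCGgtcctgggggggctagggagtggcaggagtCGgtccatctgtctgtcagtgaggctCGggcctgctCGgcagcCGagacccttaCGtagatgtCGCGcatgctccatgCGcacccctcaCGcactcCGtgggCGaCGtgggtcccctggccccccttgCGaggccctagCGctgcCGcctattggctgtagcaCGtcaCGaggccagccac
Ddx4: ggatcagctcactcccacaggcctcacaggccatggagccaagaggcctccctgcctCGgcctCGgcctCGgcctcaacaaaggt
Mael: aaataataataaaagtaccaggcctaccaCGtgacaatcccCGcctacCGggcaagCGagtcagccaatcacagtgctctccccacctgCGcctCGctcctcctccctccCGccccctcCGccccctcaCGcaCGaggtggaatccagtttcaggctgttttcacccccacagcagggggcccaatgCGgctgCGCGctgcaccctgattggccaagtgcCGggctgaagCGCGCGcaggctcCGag
Asz1: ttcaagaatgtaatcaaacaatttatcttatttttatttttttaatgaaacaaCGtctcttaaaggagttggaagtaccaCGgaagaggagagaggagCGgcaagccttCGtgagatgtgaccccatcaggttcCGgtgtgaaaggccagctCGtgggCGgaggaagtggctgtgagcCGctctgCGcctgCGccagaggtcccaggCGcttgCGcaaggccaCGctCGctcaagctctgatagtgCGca
The Ddx4 sequence is short because its RefSeq start lies 165 bases downstream of the GENCODE start. Over the full 250 bases before the RefSeq start, Ddx4 held 31 CpG sites, Dazl 20, Mael 18 and Asz1 15. The median over 32851 RefSeq promoters was 6, and 27.3% of them held at least 15. The authors' own promoter boundaries are not given in the sources used here, so these windows need not match them.

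A few short motifs were searched on both strands of the same 250 bases. CCGG, the MspI site, occurred 2 times in Ddx4, 2 times in Mael, 1 time in Asz1 and not in Dazl, and 47.1% of all RefSeq promoters held it. The E-box CACGTG and the E2F core TCCCGC are the letters bound by the MGA and E2F6 proteins of a repressor complex known to keep germline genes silent in ESCs. Ddx4 and Mael held 1 of each, Dazl and Asz1 neither. Among all RefSeq promoters 6.02% held the E-box, 16.9% the E2F core and 1.45% both. In Mael the E-box began 223 and the E2F core 143 bases before the RefSeq start, and in Ddx4 they began 29 and 136 bases before it. Both of these Ddx4 motifs and its 2 MspI sites lie in the 165 bases that are not printed above. A match is only a match of letters.

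In GENCODE M21 the gene spans were chr17:50279395-50293636 for Dazl, chr13:112598333-112652475 for Ddx4, chr1:166201201-166238747 for Mael, chr6:18050964-18109061 for Asz1 and chr14:70372477-70429383 for Piwil2. Each gene had 1 value for its promoter, 5' UTR, exons and introns, and Piwil2 also for its 3' UTR. Of the 21 rows, 19 had a level in all 12 libraries. The introns of Ddx4 had none in ESC replicate 2 and pESC replicate 2, and the Piwil2 3' UTR was listed at 0% in pESC replicate 1 alone. The 5' UTR and exon rows of Ddx4 were identical, and the parts of a gene overlap the same CpG sites near the start, so rows of 1 gene are not independent.

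The libraries differed in overall level. Over the 133311 features measured in all 12 libraries the mean was 25.9% and 21.3% in ESCs, 24.0% and 23.1% in pESCs, 36.5% and 36.2% in E9.5 PGCs, 24.1% and 24.4% in E12.5 PGCs, and 29.6% and 29.5% in ESC-PGCLCs, with 27.6% and 27.2% in pESC-PGCLCs. The ESC libraries were the least alike. No read counts came with the levels, so the depth behind any value is unknown. Expression was not analysed here, and promoter levels of cell type markers are given further on as description only.

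The 5 promoters shared 1 order of levels. They were lowest in both kinds of stem cell, highest in E9.5 PGCs, and in between in E12.5 PGCs and both kinds of PGCLC. Their mean was 24.6% and 12.8% in the ESC libraries, 20.5% and 15.7% in pESCs, 72.3% and 72.4% in E9.5 PGCs, 48.8% and 46.2% in E12.5 PGCs, and 51.5% and 52.6% in ESC-PGCLCs, with 48.3% and 47.8% in pESC-PGCLCs. The median over all promoters with a level in every library stayed between 2.75% and 5.29%.

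Piwil2, the PIWI protein gene, had, with Ddx4, the lowest promoter levels in stem cells. It was 15.6% and 9.41% in ESCs and 9.82% and 9.77% in pESCs. In E9.5 PGCs it was 70.1% and 69.0% and in E12.5 PGCs 44.2% and 45.0%. ESC-PGCLCs had 49.2% and 50.1%, and pESC-PGCLCs 45.4% and 45.0%. Every E9.5 library lay above all others, and the nearest group, ESC-PGCLCs, was 19.0 points lower at the closest pair of libraries. E12.5 PGCs and pESC-PGCLCs overlapped, as did ESCs and pESCs.

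Ddx4, the helicase gene, ran close beside it. Its promoter level was 13.0% and 9.91% in ESCs, 11.0% and 10.4% in pESCs, 72.3% and 72.9% in E9.5 PGCs, 46.2% and 46.4% in E12.5 PGCs, and 47.9% and 45.5% in ESC-PGCLCs, with 45.6% and 41.6% in pESC-PGCLCs. The stem cell libraries and the other libraries were 28.6 points apart at their closest. ESC-PGCLCs overlapped E12.5 PGCs, and pESC-PGCLCs lay 0.533 points under E12.5 PGCs at the closest pair.

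Dazl, the RNA-binding protein gene, was the promoter whose stem cell libraries disagreed most. ESC replicate 1 had 39.7% and ESC replicate 2 had 12.03%, and the pESC libraries had 32.1% and 15.9%. In E9.5 PGCs the level was 65.6% and 65.98% and in E12.5 PGCs 46.0% and 43.4%. ESC-PGCLCs had 47.6% and 47.2%, and pESC-PGCLCs 44.7% and 45.4%. The 27.7 points between the ESC libraries compare with at most 2.65 points between replicates in any PGC or PGCLC group. ESC replicate 1 was only 3.68 points under the lowest PGC library.

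Mael had 20.5% and 13.0% in ESCs, 18.8% and 14.4% in pESCs, 65.9% and 66.3% in E9.5 PGCs and 43.0% and 42.1% in E12.5 PGCs. ESC-PGCLCs had 46.1% and 52.4%, and pESC-PGCLCs 44.9% and 44.8%. For this promoter alone of the set, the E12.5 PGC, pESC-PGCLC and ESC-PGCLC libraries did not overlap. The gaps between neighbours were 1.85 and 1.10 points. Taken pair by pair, such a lack of overlap was common. It held for 51.2% of all promoters between pESC-PGCLCs and E12.5 PGCs and for 57.0% between ESC-PGCLCs and E12.5 PGCs. Between pESC-PGCLCs and ESC-PGCLCs it held for 46.4%. The share of promoters apart in every pair at once was not computed.

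Asz1 was the most methylated of the 5 in every PGC and PGCLC library. It had 34.3% and 19.5% in ESCs, 30.6% and 27.9% in pESCs, 87.5% and 88.0% in E9.5 PGCs, 64.7% and 54.0% in E12.5 PGCs, and 66.5% and 67.9% in ESC-PGCLCs, with 60.8% and 62.1% in pESC-PGCLCs. Its E9.5 mean of 87.7% lay above 99.2% of 18456 promoters, while the other 4 lay above 84.2% to 89.4%. The E12.5 replicates, 10.7 points apart, enclosed both pESC-PGCLC libraries.

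**Figure D1:**
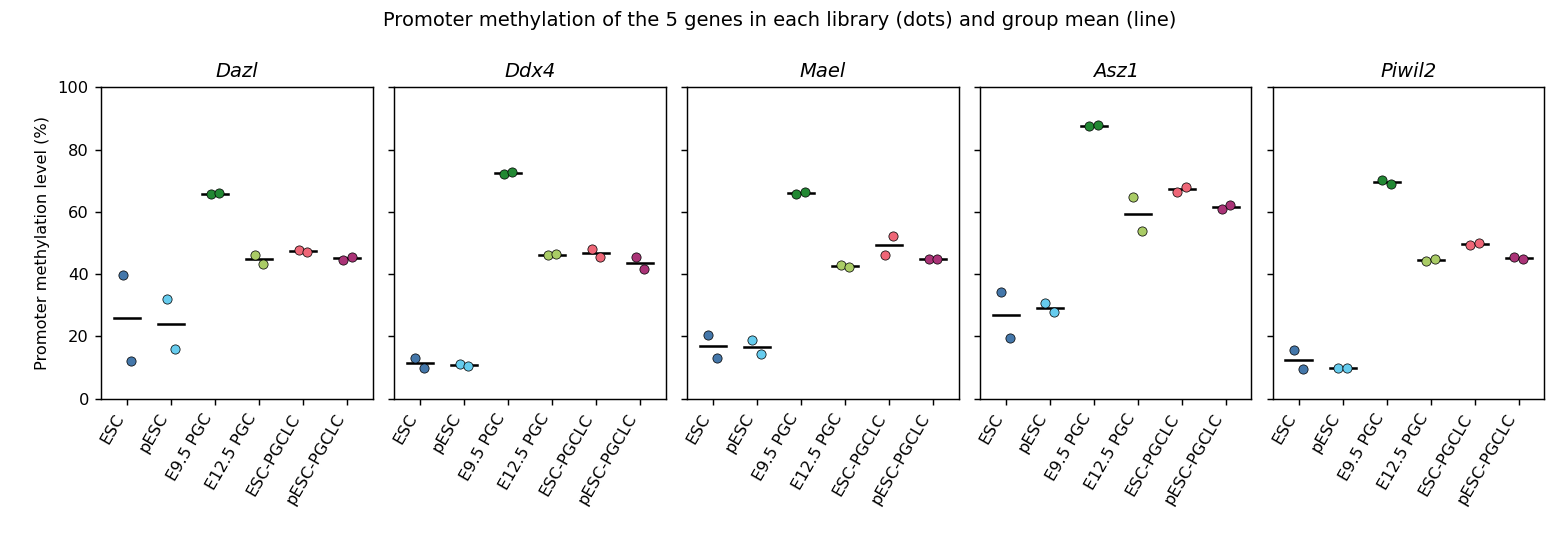
Promoter methylation level in percent (vertical axis) of Dazl, Ddx4, Mael, Asz1 and Piwil2 in the 6 groups, with 1 dot for each of the 2 libraries and a line at their mean. E9.5 PGCs stand highest in every panel, from 65.6% for Dazl to 88.0% for Asz1, and the ESC dots of Dazl are the farthest apart, at 39.7% and 12.03%.

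Few of all promoters were low in stem cells and high in E9.5 PGCs, but 64.5% of them were under 20% even in E9.5 PGCs. With limits chosen after the values were seen, a mean under 30% in ESCs and in pESCs together with at least 60% in E9.5 PGCs held for 788 of 18456 promoters, or 4.27%, including all 5 of these genes. These 788 were part of the 3532 promoters that reached 60% in E9.5 PGCs, so the pattern was less rare among promoters methylated there. In E12.5 PGCs 1.83% of promoters reached 60%, against 19.1% in E9.5 PGCs.

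The first comparison asked whether stem cells without a paternal genome differ at these genes. The pESC minus ESC difference ranged from -2.70 points for Piwil2 to 2.36 points for Asz1, and the libraries of ESCs and pESCs overlapped for every promoter. limma on the log2 odds of the level, with Benjamini-Hochberg adjustment over 148012 features, called 0 of 19 rows and 0 of 5 promoters. A call needed an adjusted p under 0.05 and a difference of at least 10 points. Over all features 0% were called, with 2054 at an unadjusted p under 0.05, and over promoters 0%, with 223. None of the 19 rows had an unadjusted p under 0.05. As these 4 libraries gave no call at any feature, the lack of calls here does not show that the genes are alike. Same-numbered ESC and pESC libraries also shared part of their spread (correlation 0.432), which the fit left in its error. The sign of 4 promoter differences turned when ESC replicate 1 was left out, Dazl moving to 11.98 points.

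The step from E9.5 to E12.5 asked how these genes lose methylation as PGCs develop in the embryo. All 5 promoters fell. The E12.5 minus E9.5 difference was -28.4 points for Asz1, -26.3 for Ddx4, -24.97 for Piwil2, -23.5 for Mael and -21.1 for Dazl, and the libraries of the 2 stages did not overlap at any of them. Of all promoters 58.7% likewise had both E12.5 libraries under both E9.5 libraries. On the log2 odds scale the differences were -2.20 (SE 0.205) for Asz1, -1.58 (SE 0.116) for Ddx4, -1.47 (SE 0.0904) for Piwil2, -1.37 (SE 0.135) for Mael and -1.22 (SE 0.0975) for Dazl. Adjusted p-values by limma ranged from 7.68e-05 for Piwil2 to 0.000257 for Mael. Each promoter kept between 63.8% (Ddx4) and 68.0% (Dazl) of its E9.5 level.

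Over all gene parts, 19 of 20 tested rows were called lower. The introns of Ddx4 (46.2% and 59.6% at E9.5, 42.9% and 17.1% at E12.5) had a mean difference of -22.9 points and were not called (adjusted p = 0.246). Over all features 49.6% were called lower and over all promoters 32.2%. Most promoters have little methylation to lose. Among 5397 promoters with a mean of at least 30% over the 8 libraries of the fit, a limit set after the values were seen, 93.9% were called lower and the median difference was -23.5 points. The differences of the 5 genes, -28.4 to -21.1 points, lay on either side of that median. The median feature moved by -0.86 on the log2 odds scale. With each library centred on its own median, the fall of Dazl (-0.11, adjusted p = 0.477) and Mael (-0.25, adjusted p = 0.251) was no longer called, and 6 of 20 rows remained past the threshold. This centring took out more than the shared shift, since the median feature then stood at 0.25. In a fit of all 12 libraries Dazl lost its call (adjusted p = 0.128) at the same difference. The share of all features called was computed for the main fits only. Counts of rows under other settings, here and below, therefore stand without one.

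Whether cells induced in culture resemble embryonic PGCs was asked against both stages, and the comparisons share the same PGC libraries and the same fit. Against E9.5 PGCs, ESC-PGCLCs had lower levels at all 5 promoters. The differences were -25.9 points for Ddx4, -20.5 for Asz1, -19.9 for Piwil2, -18.4 for Dazl and -16.9 for Mael. All 5 were called (adjusted p from 0.000777 to 0.00246), and 18 of 20 rows, where 29.6% of all features and 21% of promoters were called lower. The rows not called were the introns of Ddx4 and the 5' UTR of Asz1, which differed by -10.1 points (adjusted p = 0.05998). In a fit of all 12 libraries 8 rows were called, and Dazl was not (adjusted p = 0.225).

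pESC-PGCLCs were also lower than E9.5 PGCs, with differences of -29.0 points for Ddx4, -26.3 for Asz1, -24.4 for Piwil2, -21.2 for Mael and -20.8 for Dazl and with adjusted p from 0.000259 to 0.000692. All 5 promoters and 19 of 20 rows were called, against 40.2% of all features and 27.3% of promoters. Of the promoters with a mean of at least 30%, 64.4% were called lower in ESC-PGCLCs and 82.4% in pESC-PGCLCs, with median differences of -13.1 and -17.6 points. In both kinds of PGCLC the difference at Ddx4 was among the lowest of all promoters, with 1.36% and 1.93% of 18794 promoters lower still. With each library centred on its median, 11 of 20 rows were called in each comparison, and Mael was not (adjusted p = 0.178 and 0.0832). The median feature then stood at 0.22 and 0.21 on the log2 odds scale, against -0.44 and -0.60 without centring. In a fit of all 12 libraries Dazl was not called in pESC-PGCLCs (adjusted p = 0.147).

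Against E12.5 PGCs the promoters of ESC-PGCLCs differed by 0.455 points for Ddx4, 2.71 for Dazl, 5.05 for Piwil2, 6.65 for Mael and 7.88 for Asz1. None of the 5 was called (adjusted p from 0.0532 for Piwil2 to 0.899 for Ddx4), against 13.9% of promoters called higher. Of the promoters with a mean of at least 30%, 45.1% were called higher, and their median difference of 10.2 points was above that of each of the 5 genes. With centred libraries the sign turned for each of the 5 genes except Asz1. The median feature turned too, from 0.34 to -0.11 on the log2 odds scale. The exons of Piwil2 were the 1 row of 20 called, where 22.2% of all features were called higher. They had 39.9% and 49.1% in E12.5 PGCs and 55.8% and 58.0% in ESC-PGCLCs, a difference of 12.4 points (adjusted p = 0.0297). That call was lost without ESC-PGCLC replicate 1, with centred libraries and in the fit of all 12 libraries. Without E12.5 replicate 1 the Asz1 promoter was called, at 13.2 points (adjusted p = 0.0205).

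Between pESC-PGCLCs and E12.5 PGCs the means were closer at 4 of the 5 promoters and farther apart at Ddx4. The difference was -2.65 points for Ddx4, 0.302 for Dazl, 0.616 for Piwil2, 2.12 for Asz1 and 2.33 for Mael, with adjusted p from 0.444 to 0.933. No promoter and no row was called, where 5.28% of promoters and 7.1% of all features were called in either direction. Only 1 row had an unadjusted p under 0.05. A p above the threshold does not show that the levels were the same.

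The origin of the PGCLCs was compared directly. pESC-PGCLCs had lower means than ESC-PGCLCs at all 5 promoters. The differences were -2.40 points for Dazl, -3.10 for Ddx4, -4.32 for Mael, -4.44 for Piwil2 and -5.75 for Asz1, and the libraries overlapped only at Ddx4. Of all promoters 35.2% had both pESC-PGCLC libraries under both ESC-PGCLC libraries. None of the 20 rows was called (adjusted p from 0.199 to 0.968), and 2 had an unadjusted p under 0.05. Over all features 0.0948% were called and over promoters 0.0958%. The same sign was seen over promoters with a mean of at least 30%, with a median of -4.52 points.

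Upon induction 4 of the 5 promoters were called higher than in the stem cells, and for all 5 every PGCLC library lay above every library of its stem cells of origin, as did 42.8% of all promoters in ESC-PGCLCs and 40.8% in pESC-PGCLCs. In ESC-PGCLCs the rise over ESCs was 40.3 points for Asz1, 37.2 for Piwil2, 35.3 for Ddx4 and 32.5 for Mael, with adjusted p from 0.000278 to 0.00241 by limma. In pESC-PGCLCs the rise over pESCs was 35.4 points for Piwil2, 32.9 for Ddx4, 32.2 for Asz1 and 28.3 for Mael, with adjusted p from 0.000463 to 0.0104. The call of Asz1 in pESC-PGCLCs was lost when any of the 4 libraries was left out, with adjusted p from 0.0551 to 0.0750. Of all promoters 12.1% were called higher in ESC-PGCLCs and 8.55% in pESC-PGCLCs, and the median promoter moved by 0.587 and 0.435 points. Of the 4546 promoters with a mean of at least 30% over the libraries of the fit, 20.5% and 12.3% were called higher. Their median differences were 7.79 and 4.04 points, and 3 of the 5 genes were among them. Between 1.37% and 3.43% of promoters had a larger rise than these 4 genes.

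Dazl was the promoter that missed the call. Its difference was 21.6 points in ESC-PGCLCs (adjusted p = 0.197) and 21.01 points in pESC-PGCLCs (adjusted p = 0.298), neither called. The SE of its log2 odds was 0.688, against 0.225 for Ddx4. Without ESC replicate 1, the library with 39.7%, the difference in ESC-PGCLCs became 35.4 points. Leaving out ESC replicate 2 instead leaves that 39.7% beside 47.6% and 47.2% in ESC-PGCLCs, a far smaller rise. Which ESC library is the better measure was not tested.

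Over all gene parts, 12 of 19 rows were called higher in ESC-PGCLCs, where 13.7% of all features were, and 11 of 19 in pESC-PGCLCs, where 8.91% were. Leaving out single libraries gave 8 to 18 rows in ESC-PGCLCs, 18 of them without ESC replicate 1, 9 without ESC-PGCLC replicate 1 and 8 without ESC-PGCLC replicate 2. In pESC-PGCLCs it gave 6 or 7, whichever library was left out. The change upon induction did not differ by origin at any of the 19 rows beyond the threshold. The pESC change minus the ESC change ranged from -8.12 points for Asz1 to -0.545 for Dazl among the promoters. This interaction was called at 0.0365% of all features and 0.0372% of promoters, and no row of the 5 genes had an unadjusted p under 0.05.

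Embryonic PGCs were also set against ESCs, in a fit of all 12 libraries. In E9.5 PGCs all 5 promoters were higher, by 61.1 points for Ddx4, 60.8 for Asz1, 57.1 for Piwil2, 49.3 for Mael and 39.9 for Dazl, with adjusted p from 3.17e-07 for Ddx4 to 0.00587 for Dazl. Of all promoters 30.8% were called higher, and 79.5% of the 4819 with a mean of at least 30%, whose median difference was 23.0 points. Of 19 rows 18 were called, where 42.1% of all features were called higher. The exception was the exons of Piwil2, at 16.7 points (adjusted p = 0.0592). With centred libraries Dazl lost its call (adjusted p = 0.249). The median feature then stood at -1.17 on the log2 odds scale, against 0.68 without centring.

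In E12.5 PGCs the difference from the same ESC libraries was 34.8 points for Ddx4, 32.5 for Asz1, 32.1 for Piwil2 and 25.8 for Mael, all called (adjusted p from 1.31e-05 to 0.00215). Dazl differed by 18.8 points and was not called (adjusted p = 0.151). Without ESC replicate 1 the Dazl difference was 32.7 points. Leaving out ESC replicate 2 instead leaves 39.7% in ESCs beside 46.0% and 43.4% in E12.5 PGCs. Of all promoters 9.45% were called higher. Of the 4819 with a mean of at least 30%, 20.2% were called higher and 11.7% lower, with a median difference of -0.754 points. Over gene parts 15 of 19 rows were called, where 10.2% of all features were. That count fell to 9 without E12.5 replicate 2 and to 7 in a fit of the 4 ESC and E12.5 libraries alone, where Asz1 was not called (adjusted p = 0.0596).

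**Figure D2:**
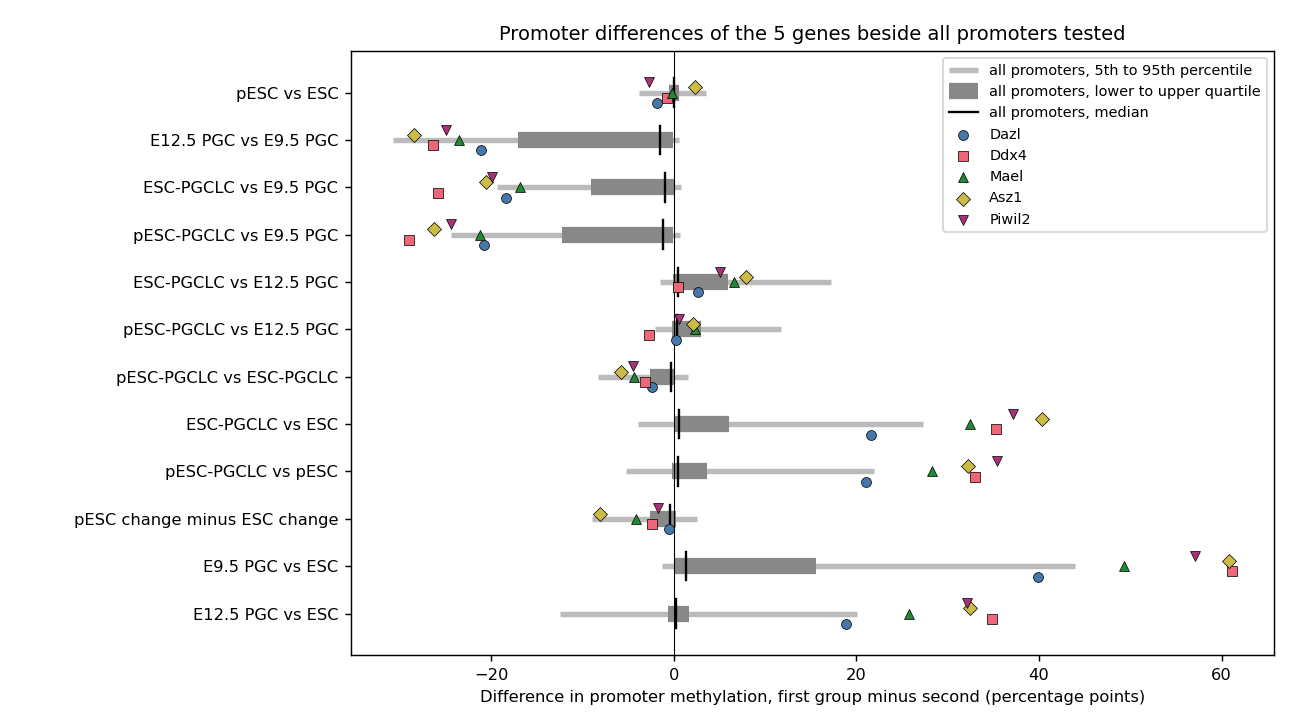
Difference in promoter methylation in percentage points (horizontal axis, first group minus second) for the 12 comparisons, with a symbol for each of the 5 genes over the range of all promoters tested (thin bar from the 5th to the 95th percentile, thick bar from the lower to the upper quartile, line at the median). The symbols lie at -28.4 to -21.1 points for E12.5 against E9.5 PGCs, at 39.9 to 61.1 for E9.5 PGCs against ESCs, and within 10 points of 0 between pESCs and ESCs and between the 2 kinds of PGCLC.

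The parts of each gene did not all share the promoter's pattern. The 5' UTR and exons of Ddx4, with 8.87% and 6.84% in ESCs, were at 64.9% and 66.3% in E9.5 PGCs and 42.4% and 44.2% at E12.5. The Mael 5' UTR went from 12.9% and 5.24% in ESCs to 67.9% and 72.5% in E9.5 PGCs, the largest difference of any row, 61.2 points (adjusted p = 1.05e-05). The Piwil2 5' UTR was at 10.9% and 0.985% in ESCs and 34.6% and 39.9% in ESC-PGCLCs, a called rise of 31.3 points (adjusted p = 0.0205).

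Further into the gene, 2 rows were already methylated in stem cells. The introns of Asz1 had 82.5% and 62.5% in ESCs and 79.2% and 63.0% in pESCs. They had 88.6% and 88.7% in E9.5 PGCs, 70.6% and 72.2% in E12.5 PGCs, and 75.8% and 73.2% in ESC-PGCLCs, with 74.6% and 72.5% in pESC-PGCLCs. They fell by 17.3 points from E9.5 to E12.5 (adjusted p = 0.000103), but their ESC-PGCLC mean differed from ESCs by 1.99 points (adjusted p = 0.962).

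The exons of Piwil2 had 63.0% and 38.9% in ESCs, 47.4% and 41.3% in pESCs, 68.9% and 66.4% in E9.5 PGCs, and 50.8% and 49.7% in pESC-PGCLCs. The ESC-PGCLC mean was 5.94 points over ESCs (adjusted p = 0.696), where the promoter of the same gene differed by 37.2. From E9.5 to E12.5 they fell by 23.2 points (adjusted p = 0.000965), beside a promoter difference of -24.97 points. The introns of Dazl were the least methylated row of the 5 genes in E9.5 PGCs, with 33.6% and 33.3%. The introns of Ddx4 had replicates far apart, with 29.8% and 69.0% in pESC-PGCLCs, and were called in no comparison.

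**Figure D3:**
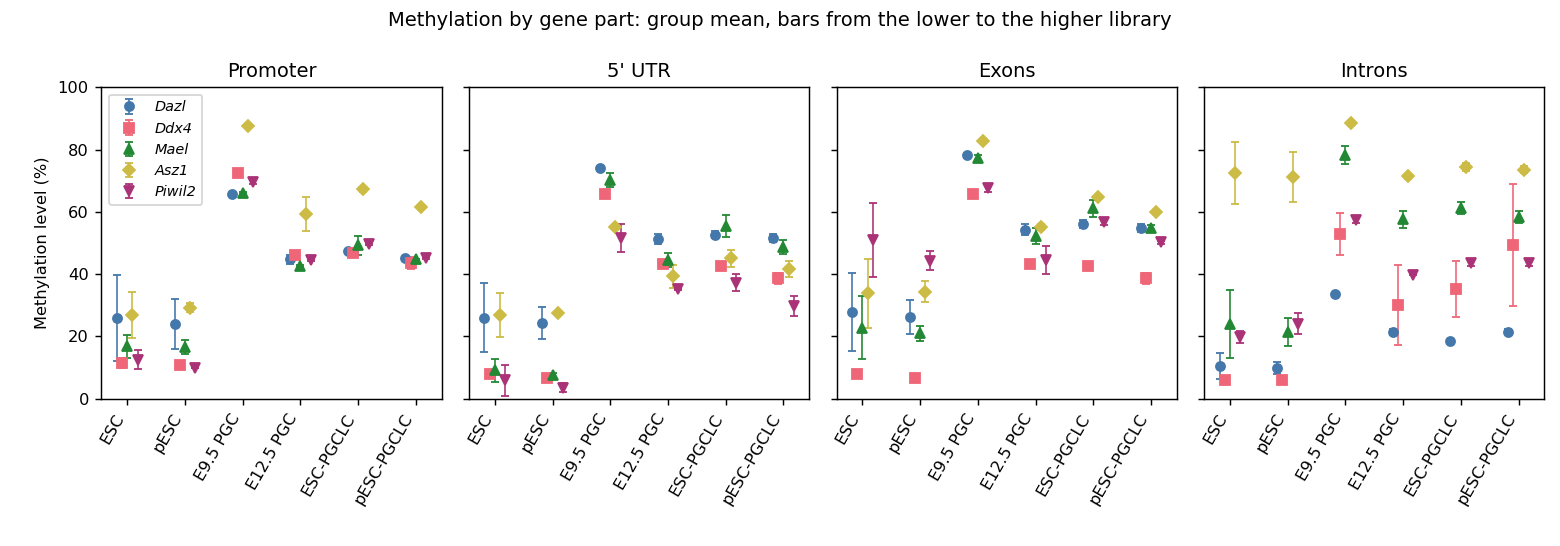
Methylation level in percent (vertical axis) of the promoter, 5' UTR, exons and introns of the 5 genes in the 6 groups, as the mean with a bar from the lower to the higher of the 2 libraries. Ddx4, Mael and Piwil2 are near the bottom in stem cells at the promoter and 5' UTR, while Asz1 introns stay above 60% and Piwil2 exons above 30% in every library.

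CpG islands and shores within 1000 bases of a start site gave a view with known borders. An island covered the start of Dazl (chr17:50292685-50293791), of Ddx4 (chr13:112651960-112652503) and of Mael (chr1:166238498-166238965). The Ddx4 island had 10.1% and 7.62% in ESCs, 69.9% and 71.2% in E9.5 PGCs, 45.5% and 46.3% in E12.5 PGCs, and 46.0% and 44.7% in ESC-PGCLCs, with 43.7% and 40.0% in pESC-PGCLCs. The Mael island had 31.2% and 12.9% in ESCs, 74.8% and 76.4% in E9.5 PGCs, and 49.4% and 53.6% in E12.5 PGCs. The Dazl island had 25.4% and 10.4% in ESCs, 57.3% and 56.5% in E9.5 PGCs and 39.6% and 37.6% in E12.5 PGCs. All 3 islands had their lowest means in the stem cells and their highest in E9.5 PGCs, like the promoters, while the order of E12.5 PGCs and PGCLCs between them was not that of the promoter at Dazl and Ddx4.

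The shores behaved less alike. The shore beside the Dazl island, 155 bases from the start, was methylated in the 1 ESC library that covered it (70.4%) and in the 1 pESC library (67.7%). It had 83.3% and 81.4% in E9.5 PGCs and 83.3% in the 1 E12.5 library with a level, beside 61.1% and 53.4% in pESC-PGCLCs. The Ddx4 shore had 29.7% and 27.0% in ESCs, 51.1% and 53.4% in E9.5 PGCs, and 31.7% and 28.6% in E12.5 PGCs. No island overlapped the Piwil2 start in the deposited levels, but a shore did (chr14:70429236-70431237), with 16.2% and 9.32% in ESCs and 69.9% and 68.4% in E9.5 PGCs. No island or shore lay within 1000 bases of the Asz1 start.

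The wider pathway did not share 1 pattern. A list of 25 other germ granule and piRNA genes, chosen with earlier results of these data known, had 18 with a promoter row and 15 that could be tested among PGCs and PGCLCs. From E9.5 to E12.5 7 of 15 were called lower and none higher, with a median of -12.1 points, where 32.2% of all promoters were called lower and their median was -1.49. The largest differences were those of Fkbp6, a co-chaperone of the piRNA pathway, at -31.6 points (adjusted p = 7.47e-05), Spocd1, a factor for piRNA-directed methylation, at -25.0 points (0.000281), and Pnldc1, the nuclease that trims piRNAs, at -22.4 points (0.000834). Pnldc1 ran like the 5 genes, with 21.2% and 8.25% in ESCs, 72.5% and 73.3% in E9.5 PGCs, and 47.1% and 54.0% in E12.5 PGCs.

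The smallest differences were those of promoters with hardly any methylation. Exd1 differed by 0.127 points, Mybl1 by -0.239 and Ddx25 by 0.977. All group means of these 3 lay between 1.6% and 3.2%. Mybl1 encodes a transcription factor of the meiotic piRNA programme and Ddx25 a helicase of later germ cells. Against ESCs, 7 of 14 tested promoters of the list were called higher in E9.5 PGCs (30.8% of all promoters), 3 of 14 in E12.5 PGCs (9.45%) and 5 of 14 in ESC-PGCLCs (12.1%). Against pESCs, 4 of 14 were called higher in pESC-PGCLCs (8.55%). Against E9.5 PGCs, 6 of 15 were called lower in ESC-PGCLCs (21%) and 7 of 15 in pESC-PGCLCs (27.3%). Against E12.5 PGCs, 2 of 15 were called higher in ESC-PGCLCs, a share near the 13.9% of all promoters, and none in pESC-PGCLCs. None was called by origin, in stem cells or PGCLCs.

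A further 8 germline genes of meiosis and spermatogenesis, with 6 promoters tested, gave 4 called lower at E12.5 than at E9.5 (median -20.1 points, 32.2% of all promoters called) and 4 called higher in E9.5 PGCs than in ESCs (30.8%). Among the called, the largest differences were those of Sycp1, a synaptonemal complex protein, at -27.0 points (adjusted p = 0.000223), Slc25a31, an ADP/ATP carrier of the testis, at -24.4 (0.000721), and Taf7l, a testis transcription factor subunit, at -20.2 (0.000554). The smallest differences were those of Sycp3 (-20.1 points, adjusted p = 0.613, not called), Hormad1 (-17.5, adjusted p = 0.000165) and Stag3 (-4.49, adjusted p = 0.000710, under 10 points). Upon induction 3 of 6 were called higher in ESC-PGCLCs (12.1% of all promoters) and 3 of 6 in pESC-PGCLCs (8.55%). Sycp3, at 29.7 and 25.7 points, and Sycp1, at 15.2 and 10.6 points, were not among them. The Sycp3 replicates lay far apart, with 12.5% and 90% in ESC-PGCLCs and 47.4% and 27.3% in E12.5 PGCs, so its mean differences say little. Against E9.5 PGCs 4 of 6 were called lower in each kind of PGCLC (21% and 27.3%), and none was called against E12.5 PGCs.

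**Figure D4:**
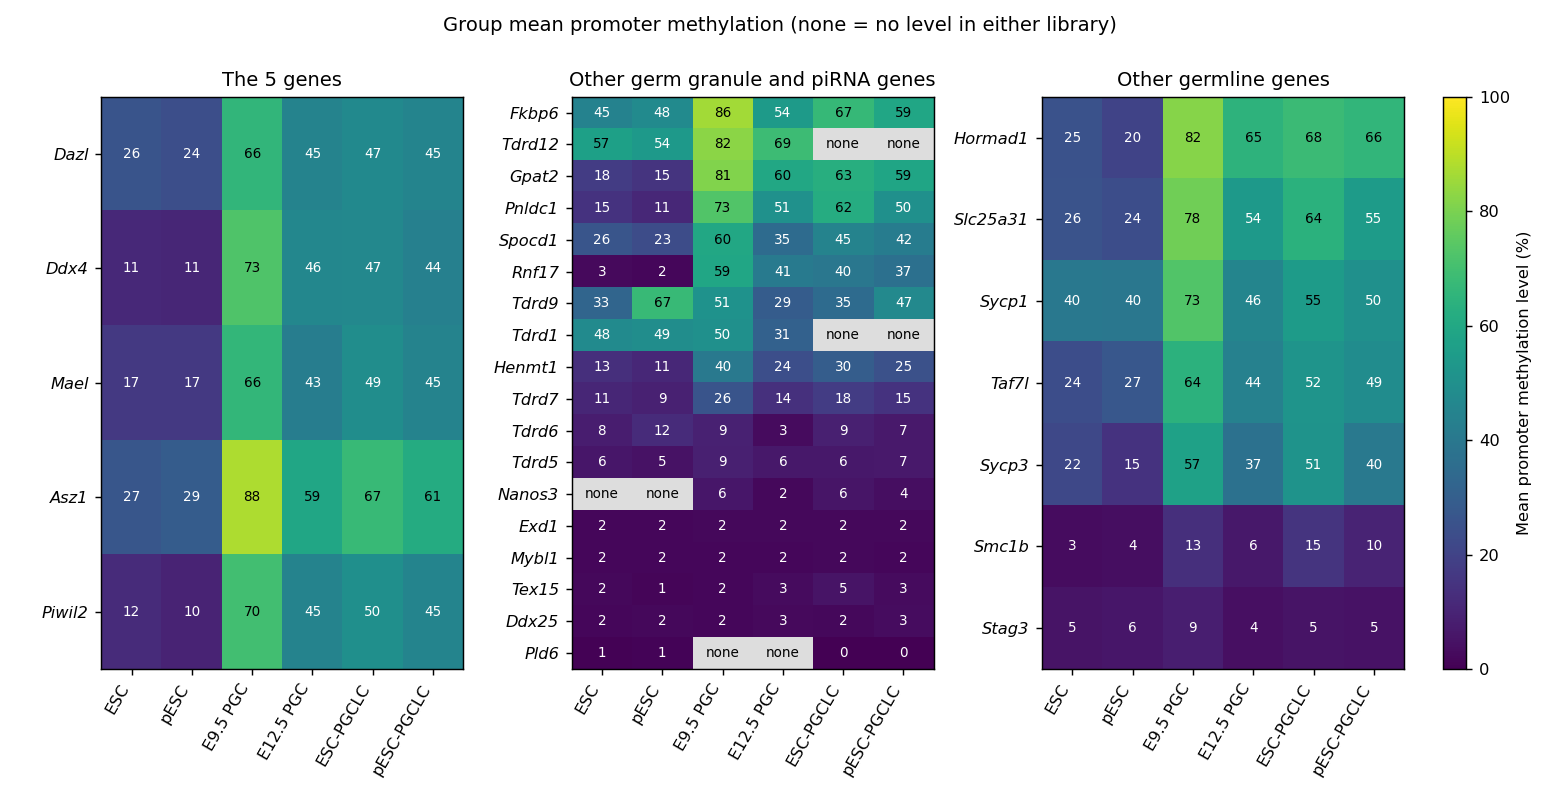
Group mean promoter methylation in percent (colour and printed value) of the 5 genes, of 18 other germ granule and piRNA genes and of 7 other germline genes, the last panels sorted by the E9.5 PGC mean, with none where neither library had a level. Part of the pathway, such as Fkbp6 and Pnldc1, is bright in E9.5 PGCs like the 5 genes, while Exd1, Mybl1 and Ddx25 stay under 4% in every group.

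Marker genes were looked at as a check of the labels, though a promoter level does not show expression. Of 4 pluripotency genes 3 were tested. From E9.5 to E12.5, 2 of them, Pou5f1 and Dppa3, were called lower, where 32.2% of all promoters were. Relative to ESCs, both genes were called higher at E9.5 (30.8% of all promoters), at E12.5 (9.45%) and after induction to ESC-PGCLCs (12.1%). Only Dppa3 was called higher in pESC-PGCLCs than in pESCs (8.55%). Set against E9.5 PGCs, Dppa3 alone was called lower in ESC-PGCLCs (21%), and both genes were in pESC-PGCLCs (27.3%). Of 4 PGC specification genes 2 were tested among PGCs and PGCLCs and 1 in the fits with stem cells, and none was called. Of 7 genes listed as gonadal or other somatic markers 6 were tested, and 1, Pecam1, moved like the 5 genes. It had 7.48% and 9.85% in ESCs, 64.1% and 65.2% in E9.5 PGCs, and 46.4% and 49.6% in E12.5 PGCs. The part of other cells in the levels was not tested, and a mix of methylated and unmethylated cells cannot be told apart from partial methylation in each cell.

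The promoters most like each gene were sought by the mean absolute difference in level over the 12 libraries, among promoters with a level in all of them. For Ddx4 the nearest were Gm27244 at 1.87 points, Gm23849 at 1.93 and, as the third, Piwil2 at 1.98. For Piwil2 they were Gm24890 at 0.272 points, whose small RNA gene lies inside the Piwil2 gene near its start, Gm8375 at 1.55 and Gm27244 at 1.68, with Ddx4 as the fourth. For Mael they were Lgals4 at 1.67 points, Gm25128 at 1.95 and Gm36961 at 1.96. For Dazl they were Gm47200 at 2.34 points, Smc1a at 2.75 and Gm24690 at 3.01. For Asz1 they were Dapk2 at 2.35 points and Gm20662 and 4921523L03Rik, each at 2.94. Asz1 was 14.3 to 16.8 points from the other 4 genes, which were 1.98 to 6.58 points from each other.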

How the data were processed

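RRBS levels of 12 libraries were analysed. According to the study's methods and the submitters' processing notes, the authors aligned the reads with Bismark 0.16.3 and Bowtie2 to mm10, kept unique best alignments and corrected for non-conversion. The deposited values are the fraction of methylated CG calls per feature, printed here as percent. The coverage minimum and promoter borders are not given in the sources used here. Of 30073 gene identifiers 30041 were in GENCODE M21, and 14559 of 14564 islands lay within GRCm38 chromosomes. Island starts were converted to count from 1, and shores are as deposited.

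Each level was turned into its log2 odds, log2((level + 0.01) / (1 - level + 0.01)), and tested with limma 3.58.1 in R 4.3.3. P-values were adjusted by Benjamini-Hochberg over all features that no library of the fit lacked. pESCs and ESCs were fitted on 4 libraries, PGCs and PGCLCs on 8, the inductions and their interaction on 8, and PGCs against ESCs on 12. The step was tested on simulated data. Plots were drawn with matplotlib 3.10.9, and descriptions computed with pandas 2.3.3 and numpy 2.4.6 under Python 3.11.15. The genes and lists were chosen with earlier results of these data known. Named genes were all 5, from 2 lists the 3 largest and 3 smallest promoter differences between E12.5 and E9.5, and the 3 promoters most alike. Others were named after their values were seen.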

Additional observations from a re-analysis of the deposited data

How the results depend on the processing

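Each count of called rows and each promoter difference was recomputed with an offset of 0.1, untransformed levels, libraries centred on their median, another set of libraries in the fit, at least 1 library per group, no minimum difference, the replicate number as a block, and without each library. The share of all features called was not computed under these settings, so the counts of rows stand without it. Centring gave 6 called rows for E12.5 against E9.5 PGCs, 11 for each kind of PGCLC against E9.5 PGCs and 0 for ESC-PGCLCs against E12.5 PGCs. In each of these comparisons it also turned the sign of the median feature, so it took out more than the shared shift. All 12 libraries in 1 fit gave 8 for ESC-PGCLCs against E9.5 PGCs and 0 against E12.5 PGCs, and no minimum difference gave 2 in the latter. A fit of ESCs and E12.5 PGCs alone gave 7. Without single libraries, ESC-PGCLCs against E12.5 PGCs gave 0 to 2 called rows, pESC-PGCLCs against pESCs 6 to 7 and E12.5 PGCs against ESCs 9 to 17. The cause of these moves was not tested.

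Signs turned only where no promoter was called. In both comparisons of PGCLCs with E12.5 PGCs, centring also turned the sign of the median feature. With centring, the log2 odds of ESC-PGCLCs against E12.5 PGCs were -0.30 for Dazl, -0.43 for Ddx4, -0.076 for Mael and -0.17 for Piwil2. Those of pESC-PGCLCs against E12.5 PGCs were -0.29 for Dazl, -0.18 for Mael, -0.19 for Asz1 and -0.28 for Piwil2. That of pESC-PGCLCs against ESC-PGCLCs was 0.0056 for Dazl, and the interactions were 0.13 for Dazl, 0.16 for Ddx4 and 0.32 for Piwil2. Without single libraries, pESCs minus ESCs ranged from -15.7 to 11.98 points for Dazl, -2.31 to 0.787 for Ddx4, -3.92 to 3.58 for Mael, -5.78 to 0.386 for Piwil2 and -5.03 to 9.75 for Asz1. ESC-PGCLCs minus E12.5 PGCs ranged from -0.748 to 1.66 for Ddx4, and pESC-PGCLCs minus E12.5 PGCs from -1.02 to 1.63 for Dazl and -3.24 to 7.49 for Asz1. The interaction ranged from -14.4 to 13.3 for Dazl and -4.83 to 1.34 for Piwil2.

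The replicate block changed no promoter call. It gave 15 called rows for ESC-PGCLCs against ESCs, 12 for pESC-PGCLCs against pESCs, 19 for ESC-PGCLCs against E9.5 PGCs and 16 for E12.5 PGCs against ESCs. Same-numbered libraries deviated together between ESCs and pESCs (correlation 0.432 over 133311 features) and more weakly between E9.5 PGCs and ESC-PGCLCs (0.139). The correlation was less than 0.07 in the other comparisons. The main fits took the numbers as names only. For ESCs and pESCs this left a spread shared by same-numbered libraries in the error, and its source was not tested. With 2 libraries a group and no read counts, the depth behind the levels cannot be weighed, and a p above the threshold says little about likeness.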

Other observations

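Among the 3 pluripotency promoters tested, Dppa3, a maternal factor gene also known to be expressed in PGCs, had a promoter level of 2.55% and 3.61% in ESCs and 1.85% and 3.33% in pESCs, but 67.1% and 69.8% in E9.5 PGCs. It was 32.4% and 35.0% in E12.5 PGCs, and 39.5% and 40.1% in ESC-PGCLCs. pESC-PGCLCs had 28.1% and 24.8%. It was named after its values were seen. Some other marker promoters had hardly any methylation in any group. Group means were 1.66% to 2.15% for Sox2 of the same list and 1.72% to 2.66% for Tfap2c, a PGC specification gene. Pou5f1 of the pluripotency list lay between, with means of 2.80% in ESCs, 24.7% in E9.5 PGCs and 14.6% in E12.5 PGCs. Its means were 14.9% in ESC-PGCLCs and 11.9% in pESC-PGCLCs. Rnf17, a tudor protein gene of germ granules, was likewise at 1.62% and 3.45% in ESCs, 61.3% and 57.4% in E9.5 PGCs, 40.9% and 41.3% in E12.5 PGCs, and 36.5% and 43.1% in ESC-PGCLCs. Gpat2, a mitochondrial enzyme gene needed for piRNA production, had 28.1% and 7.14% in ESCs and 79.5% and 82.3% in E9.5 PGCs.

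Tdrd9, a piRNA pathway helicase, had the largest pESC minus ESC difference of its list, 34.8 points, but was not called. Its ESC libraries had 8.33% and 56.9%, its pESC libraries 69.1% and 65.7%, and its E9.5 PGC libraries 71.1% and 30.8%, so the ESC replicates lay farther apart than the group means.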
